A study of Mus musculus and Mus musculus
Rattus norvegicus with 30 samples.

Results

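The expression of 9 genes of the primitive endoderm was followed across mouse embryonic stem cells (mESCs) with induced Cdx2 and on both alleles of mouse-rat fusion cells. The genes were Sox17, Sox7, Pdgfra, Dab2, Foxa2, Hnf4a, Foxq1, Sparc and Cubn. They were chosen by name as 9 of the 19919 genes counted in all mESC RNA-seq libraries, and 8 of them had a row on the rat genome, Foxq1 being the exception. Each group of the mESC RNA-seq held 2 libraries. The groups were wild-type cells (WT), cells overexpressing mouse Cdx2 (mCdx2-OE) and cells overexpressing rat Cdx2 (rCdx2-OE). Further cells overexpressed rat Cdx2 with the mouse form of change 1, change 2 or change 3 of the DNA-binding domain. All 7 combinations were made, and they are named R1, R2, R3, R12, R13, R23 and R123. The Flag-tagged transgenes were carried by lentivirus and switched on with doxycycline (DOX) through a Tet-On system, in which transcription needs the drug. The study contrasts cells with and without DOX, whereas the labels call the controls WT, so whether these carried an uninduced transgene is not given in the sources used here, nor is whether the replicates were separate cultures. RMES cells arose from the fusion of haploid mouse and haploid rat embryonic stem cells, and their reads were assigned to the mouse or the rat allele. They were profiled in 2 libraries labelled WT, 1 of mCdx2-OE and 1 of rCdx2-OE. Both cell types were kept in medium with LIF and inhibitors of MEK and GSK3, and MEK inhibition is known to hold back primitive endoderm. The p-values measure the spread between these libraries, which may be technical.

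Primitive endoderm is the layer of the blastocyst that faces the cavity and gives rise to the visceral and parietal endoderm of the yolk sac. Its cells leave a common precursor with the epiblast under fibroblast growth factor signalling, then express Gata6, Sox17, Gata4 and Sox7 in succession together with the receptor Pdgfra. Embryonic stem cells, which stand for the epiblast, hold these genes low. Cdx2 is a homeobox factor of the trophectoderm and later of the posterior embryo and the gut, and it is not counted among the factors of primitive endoderm.

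The genes lie apart in the mouse genome (GRCm38, the assembly of mm10), on chromosomes 1, 2, 5, 11, 13, 14 and 15. Sox17 (ENSMUSG00000025902, chr1:4490931-4497354), Foxa2 (ENSMUSG00000037025, chr2:148042877-148046969), Sparc (ENSMUSG00000018593, chr11:55394500-55423183) and Cubn (ENSMUSG00000026726, chr2:13276338-13491813) are on the minus strand. Sox7 (ENSMUSG00000063060, chr14:63943673-63950732), Pdgfra (ENSMUSG00000029231, chr5:75152292-75198215), Dab2 (ENSMUSG00000022150, chr15:6299788-6440712), Hnf4a (ENSMUSG00000017950, chr2:163506808-163572910) and Foxq1 (ENSMUSG00000038415, chr13:31556134-31560976) are on the plus strand. Within 30 kb of a start, 6 ATAC peaks were over 2-fold more open in mCdx2-OE than in WT cells, and 4 of these overlapped a Cdx2 ChIP peak, beside 58.3% of all 11698 opened peaks. The middle 200 bases of those 4 Cdx2 peaks are shown because they join an opened site to bound Cdx2 beside Foxq1, Hnf4a and Cubn. They are written 5′ to 3′ on the plus strand of GRCm38, and capitals mark the letters CNATAAA or, on the other strand, TTTATNG, which hold the core that Cdx2 is known to bind.
Foxq1, 8.27 kb after the start (chr13:31564300-31564499): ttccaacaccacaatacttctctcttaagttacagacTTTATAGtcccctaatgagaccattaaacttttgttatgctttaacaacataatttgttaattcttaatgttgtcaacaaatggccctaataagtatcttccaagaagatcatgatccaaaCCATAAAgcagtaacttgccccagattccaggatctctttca
Foxq1, 20.6 kb after the start (chr13:31576651-31576850): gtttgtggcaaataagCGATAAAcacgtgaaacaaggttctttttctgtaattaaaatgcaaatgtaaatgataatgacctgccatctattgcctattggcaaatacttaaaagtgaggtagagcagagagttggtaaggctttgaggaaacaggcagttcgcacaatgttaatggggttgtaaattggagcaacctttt
Hnf4a, 30.0 kb before the start (chr2:163476710-163476909): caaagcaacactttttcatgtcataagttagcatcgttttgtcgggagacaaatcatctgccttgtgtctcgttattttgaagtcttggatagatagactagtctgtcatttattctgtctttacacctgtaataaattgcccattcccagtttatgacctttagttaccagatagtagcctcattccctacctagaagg
Cubn, 12.4 kb after the start, in an intron (chr2:13479325-13479524): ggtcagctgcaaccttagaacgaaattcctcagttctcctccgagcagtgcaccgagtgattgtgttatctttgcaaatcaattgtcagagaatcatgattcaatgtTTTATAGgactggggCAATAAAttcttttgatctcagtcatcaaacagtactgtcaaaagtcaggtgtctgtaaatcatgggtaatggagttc
The window beside Foxq1 at 8.27 kb held 2 matches, the other Foxq1 window 1, the Cubn window 2 and the Hnf4a window 0. The Hnf4a window does hold ATAAA and TTTAT, but without the C or G that the full pattern also requires, so these are unmarked. The match in the Foxq1 window at 20.6 kb lies outside the opened ATAC peak, which itself held 0 matches. Of the 200-base windows of all 91665 Cdx2 peaks in mESCs, 45.4% held a match. The share was 25.5% in opened, 5.35% in closed and 6.64% in other ATAC peaks of the same length. Among 32851 promoters of 300 bases (250 before to 50 after a start, RefSeq, GRCm38), 10.9% held a match, and of the 10 promoters matched by symbol to Cubn, Dab2, Foxa2, Hnf4a, Pdgfra and Sparc, 0 did.

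RNA-seq depth was 75.0 and 94.7 M counts in the WT and 12.7 to 24.3 M in the 18 induced mESC libraries. CPM values are read counts scaled to a common library size with TMM factors, and 3 counts, the floor used here, correspond to more CPM in the shallower induced libraries. Cdx2 itself stood at 1.36 and 1.21 CPM in WT, 97.9 and 127 CPM in mCdx2-OE, 70.4 and 67.0 CPM in rCdx2-OE and 37.2 to 147 CPM in the mutants, endogenous and transgene reads being counted alike. Of 3 pluripotency factors looked up after the values were seen, Pou5f1 was at 1469 and 1470 CPM in WT and at 500 to 942 CPM in induced mESCs, Sox2 at 466 and 491 against 203 to 367 CPM, and Nanog at 539 and 541 against 686 to 970 CPM, so Nanog was higher and the others lower in all 18 induced libraries. More cells of a type and more RNA per cell cannot be told apart in these bulk libraries. Comparisons with WT all share the same 2 WT libraries. A gene was called changed against WT with an adjusted p under 0.05 (edgeR, Benjamini-Hochberg over all genes tested) and a fold change over 2, and among constructs or between alleles with an adjusted p under 0.05.

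In mESCs, 4 of the 9 genes were called higher and 0 lower with mCdx2-OE. Dab2, Foxq1, Foxa2 and Pdgfra rose, by log2 fold changes of 2.52, 2.71, 1.78 and 1.03. Among all 16000 genes tested, 33.4% were called, 18.4% as higher and 15.0% as lower. The share of called members, 4 of 9, is to be read against that background. The median log2 fold change was 0.91 over the 9 genes and -0.03 over all genes tested. In rCdx2-OE cells 5 of the 9 genes rose, the same 4 plus Sox17, beside 34.5% of all genes called and 19.0% called higher (15.4% lower), and the medians were 1.47 and -0.04.

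Dab2 encodes an endocytic adaptor that sorts cargo in endoderm and is needed for the endoderm layer to form. It stood at 2.31 and 2.6 CPM in WT, 13.1 and 15.3 CPM in mCdx2-OE and 17.6 and 19.0 CPM in rCdx2-OE cells. All 18 induced libraries were above both WT libraries, the lowest at 9.38 CPM, a library of R1. The log2 fold change was 2.52 ± 0.14 (SE) with mCdx2, at an adjusted p of 2.8e-10, and 2.89 ± 0.14 with rCdx2, at an adjusted p of 4.7e-11. In the mutants it lay between 2.00 and 2.51, and all 7 were called.

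Cubn encodes cubilin, the large receptor that absorbs proteins in visceral endoderm and that Dab2 helps to internalise. It was close to the floor, with 26 and 31 counts in WT (0.37 and 0.35 CPM) and 3 and 1 counts in mCdx2-OE libraries. Its 18 induced libraries were split, 9 above and 9 below both WT libraries. The log2 fold change with mCdx2 was -1.78 ± 0.85, which did not pass the test (adjusted p = 0.072). No construct was called for Cubn.

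Among the transcription factors, Foxq1, a forkhead factor, rose with every construct. It was at 0.30 CPM in both WT libraries, 1.88 and 2.08 CPM in mCdx2-OE and 1.65 and 1.69 CPM in rCdx2-OE cells. The lowest induced library, of R13, had 0.56 CPM and lay above both WT libraries. The log2 fold change was 2.71 ± 0.29 with mCdx2 and 2.47 ± 0.29 with rCdx2, and it ranged from 1.10 in R13 to 2.35 in R1, with all 7 mutants called.

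Foxa2, a pioneer forkhead factor of endoderm and node, had 10 and 11 counts in WT and 7 and 11 in mCdx2-OE libraries, which are less deep. These correspond to 0.14 and 0.13 CPM against 0.29 and 0.72 CPM, and rCdx2-OE cells had 0.58 and 0.37 CPM. The log2 fold changes were 1.78 ± 0.52 with mCdx2 and 1.85 ± 0.51 with rCdx2. The former call was lost without replicate 2 of mCdx2-OE (1.10, adjusted p = 0.18) and with the deeper WT libraries thinned to the median induced depth (1.52, adjusted p = 0.060), and the latter without replicate 1 of rCdx2-OE (1.42, adjusted p = 0.15) and under DESeq2 (1.86, adjusted p = 0.055). No mutant library had over 5 counts and no mutant was called.

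Sox17, an HMG-box factor that specifies endoderm, was at 0.13 and 0.19 CPM in WT and above both in all 18 induced libraries, from 0.21 to 1.07 CPM with a median of 0.45 CPM. Its libraries of one construct differed widely, as R2 had 1.04 and 0.22 CPM and R3 had 1.07 and 0.35 CPM. It was called with rCdx2 (log2 fold change 1.93 ± 0.61), R2, R3, R13, R23 and R123. With mCdx2 it did not pass (0.91 ± 0.72, adjusted p = 0.27). The rCdx2 call was lost without replicate 1 of rCdx2-OE (1.40, adjusted p = 0.21) and without WT replicate 1 (1.68, adjusted p = 0.058).

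Sox7, its relative from the same subfamily, did not pass the test with either full-length protein. It was at 0.77 and 0.81 CPM in WT, 0.54 and 1.24 CPM in mCdx2-OE and 0.92 and 0.59 CPM in rCdx2-OE cells, so the groups overlapped. It was called lower in R3, with 0.17 and 0.29 CPM and a log2 fold change of -1.75 ± 0.66. The difference between mCdx2 and rCdx2 was 0.10 ± 0.57 on the log2 scale.

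Hnf4a, the nuclear receptor that drives visceral endoderm and liver genes, was lower in every induced library. Its 3.78 and 3.62 CPM in WT lay above all 18 induced libraries, which ranged from 0.78 to 3.01 CPM with a median of 1.91 CPM. The log2 fold change was -0.78 ± 0.27 with mCdx2 and -0.81 ± 0.28 with rCdx2, with adjusted p-values of 0.018 and 0.015 but less than a 2-fold change. With library totals alone as scaling it did not pass for either protein (-0.59, adjusted p = 0.067, and -0.62, adjusted p = 0.056), nor with mCdx2 without its replicate 2 (-0.61, adjusted p = 0.12) or WT replicate 1 (-0.75, adjusted p = 0.053), nor with rCdx2 without its replicate 1 (-0.71, adjusted p = 0.12). It was called lower in R3 (-1.25), R23 (-1.0) and R123 (-1.65).

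Pdgfra, a receptor for platelet-derived growth factor expressed in primitive endoderm, was at 1.16 and 0.95 CPM in WT. It rose to 2.63 and 1.56 CPM in mCdx2-OE and to 3.08 and 2.71 CPM in rCdx2-OE cells, which gave log2 fold changes of 1.03 ± 0.38 and 1.47 ± 0.37. The mCdx2 call was lost without replicate 1 of mCdx2-OE (0.56, adjusted p = 0.35) and without WT replicate 2 (0.88, adjusted p = 0.10). In the mutants Pdgfra ran from 0.58 to 2.50 CPM, with log2 fold changes of -0.63 to 0.69 and no call.

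Sparc, a secreted matrix protein of the parietal endoderm, was by far the most abundant of the genes per length, at 98.2 ± 0.41 CPM per kb (SD, n = 2 libraries) in WT. Hnf4a followed with 0.77 ± 0.024 CPM per kb (SD, n = 2) and Dab2 with 0.33 ± 0.028 CPM per kb (SD, n = 2), while over the 18 induced libraries Dab2 (1.69 ± 0.38) stood above Hnf4a (0.41 ± 0.12). Below these came Foxq1 (0.24 CPM per kb), Sox7 (0.20), Pdgfra (0.14), Sox17 (0.11), Foxa2 (0.092) and Cubn (0.026) over the induced libraries, and from Hnf4a downward the intervals of 1 SD around neighbouring means overlapped. Sparc was at 373 and 371 CPM in WT and at 448 to 684 CPM in the 18 induced libraries. All of them lay above WT, and the test was passed with mCdx2 (0.42 ± 0.095), rCdx2 (0.46 ± 0.095) and all 7 mutants (0.29 to 0.86), each time under 2-fold.

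**Figure D1:**
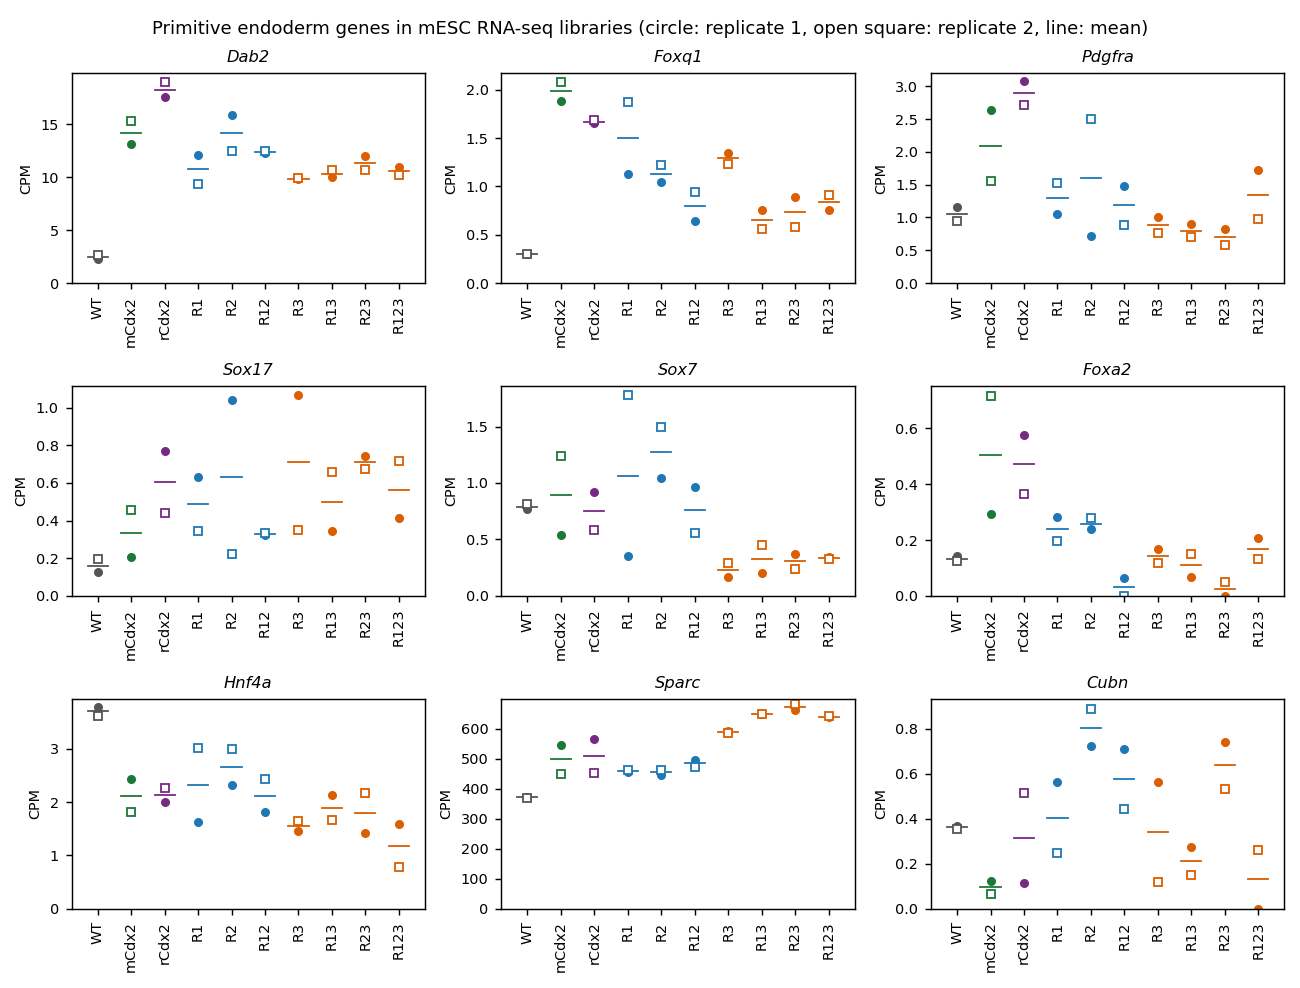
CPM of the 9 genes (vertical axes, from 0) in each of the 20 mESC RNA-seq libraries by condition (horizontal axes), with the mean of both replicates as a line. Dab2, Foxq1, Sox17 and Sparc are above both WT libraries in all 18 induced libraries, Hnf4a is below, and Sparc is highest in the 4 constructs with change 3 (orange), at 587 to 684 CPM.

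By mutant, 2 of the 9 genes were called in R1 beside 23.2% of all genes, 3 in R2 beside 23.4%, 5 in R3 beside 25.6% and 2 in R12 beside 23.7%. In R13 it was 3 beside 27.8%, in R23 it was 4 beside 28.7%, and in R123 it was 4 beside 28.9%. The 23 calls among 63 pairs of gene and mutant were 19 higher, of Dab2, Foxq1 and Sox17, and 4 lower, of Hnf4a and Sox7. Over all genes, 12.1% of such pairs were called higher and 13.8% lower. The receptor Pdgfra was called in 0 of the 7 mutants.

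**Figure D2:**
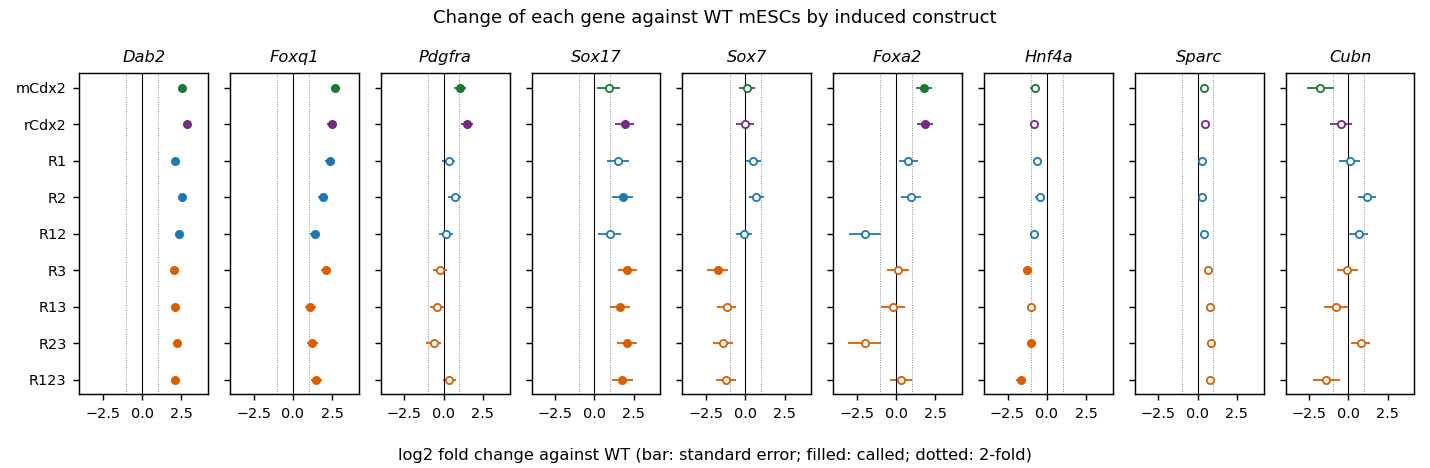
Log2 fold change against WT (horizontal axes) with its standard error for each gene and construct (rows), where filled points passed the call. Dab2 lies at 2.00 or above in every row, and Hnf4a lies below 0 in every row.

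Between the mouse and the rat protein, 0 of the 9 genes differed, beside 0.0187% of all genes called (3 of 16000 by edgeR, with 857 at an unadjusted p under 0.05, and 22 by DESeq2, again with 0 members). At an unadjusted p under 0.05 there was 1 member, Dab2, at -0.37 ± 0.14 for mCdx2 minus rCdx2. The differences of the other genes were -1.33 ± 1.04 (Cubn), -1.03 ± 0.70 (Sox17), -0.44 ± 0.39 (Pdgfra), -0.07 ± 0.52 (Foxa2), -0.03 ± 0.095 (Sparc), 0.03 ± 0.31 (Hnf4a) and 0.24 ± 0.28 (Foxq1). For Sparc the standard error leaves room for little difference, and for Cubn, Sox17, Pdgfra, Sox7 and Foxa2 for more than a 2-fold one. Over all 9 constructs, 6 of the 9 genes differed somewhere (Sox7, Pdgfra, Dab2, Foxa2, Foxq1 and Sparc), beside 56.9% of all genes.

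The additive model of changes 1, 2 and 3 in rCdx2, over 16 libraries, asked which change went with a different level of a gene. For change 1 and change 2, 0 of the 8 members tested were called, beside 0% of the 15114 genes (edgeR, Benjamini-Hochberg, with 1995 and 1569 genes at an unadjusted p under 0.05). Foxa2 was too low to be tested. The model adds the effects of the changes, so it does not describe a step shared by all mutants. Pdgfra was at 3.08 and 2.71 CPM in rCdx2-OE and at most 2.50 CPM in any mutant library. Dab2 was at 17.6 and 19.0 CPM in rCdx2-OE and at most 15.9 CPM in any mutant library. Such a step was not tested, and the 0 calls for change 1 and change 2 do not cover it. For change 3, 6 of 8 were called, beside 36.6% of all genes, and they moved in both directions.

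Sparc rose with change 3. Its 8 libraries with the change had 587 to 684 CPM (median 645) and the 8 without had 448 to 566 CPM (median 463), so the groups did not overlap, and the log2 difference was 0.42 ± 0.054 (adjusted p = 2.4e-05). Sox7 fell by 1.68 ± 0.34 on the log2 scale, from a median of 0.94 CPM without to 0.31 CPM with the change. The ranges of Sox7, 0.35 to 1.78 and 0.17 to 0.45 CPM, overlapped, as did those of each of the other members. Pdgfra fell by 0.89 ± 0.31, Dab2 by 0.38 ± 0.11, Hnf4a by 0.52 ± 0.19 and Foxq1 by 0.54 ± 0.20, with adjusted p-values of 0.034, 0.012, 0.043 and 0.048. Sox17 (0.31 ± 0.32) and Cubn (-0.64 ± 0.45) did not pass. The level of Cdx2 moved with change 3 as well. Cdx2 was at 37.2 to 94.4 CPM with and 60.6 to 147 CPM without the change, a log2 difference of -0.74 ± 0.26. In replicate 2 it was 37.2 to 44.3 CPM with and 60.6 to 68.8 CPM without. In replicate 1 the mutants had 61.9 to 94.4 CPM with and 145 to 147 CPM without the change, and rCdx2-OE had 70.4 CPM. In the 7 mutants alone, a fit added after the data were seen, the difference was -0.94 ± 0.26 (edgeR, adjusted p = 0.0047). The part of the Cdx2 level in these results was not tested. Trophoblast markers moved with change 3 too, 1 higher and 8 lower of 10 tested (Gata2 -1.63, Krt18 -1.38, Krt7 -1.12), as did 1 higher and 5 lower of the 10 further regulators of primitive endoderm (Fgfr2 -1.26, Gata6 -0.46), beside 18.2% higher and 18.4% lower over all genes. The summed trophoblast level was 210 to 242 CPM with and 272 to 1009 CPM without the change, and the part of these markers was not tested. In the 7 mutants alone, chosen after the data were seen, Pdgfra was no longer called (-0.57, adjusted p = 0.11), and Sparc (0.47), Sox7 (-1.85), Dab2 (-0.21), Hnf4a (-0.64) and Foxq1 (-0.59) were, beside 51.8% of all genes. Leaving out single libraries ended the calls of Hnf4a, Pdgfra and Foxq1 in many settings, so that the number of called members fell to 3 without either replicate of R3, replicate 1 of R23, replicate 2 of R13 or replicate 2 of R2.

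**Figure D3:**
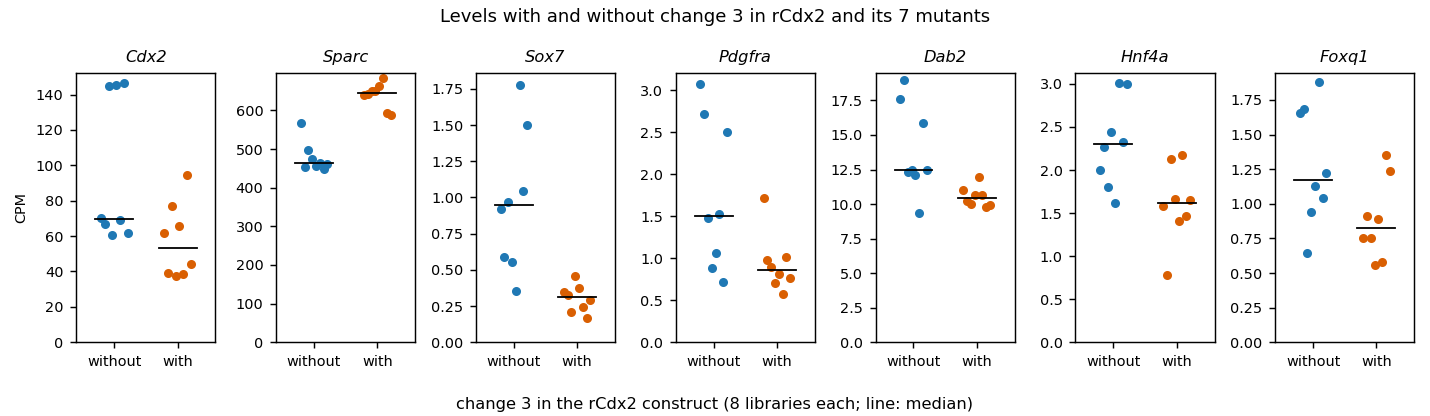
CPM (vertical axes, from 0) of Cdx2 and the 6 called genes in the 8 libraries with and the 8 without change 3 (horizontal axes), each point a library and each line a median. Sparc separates without overlap and upward, at 587 CPM or more against 566 CPM or less, while the other genes and Cdx2 lie lower with the change.

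R123 is the rat protein with the mouse form of all 3 changes. A contrast of R123 with mCdx2, also added after the data were seen, called Dab2 (-0.41 ± 0.14), Foxq1 (-1.23 ± 0.32) and Sparc (0.36 ± 0.095), 3 of 9 members beside 42.4% of all genes. Cdx2 was at 61.9 and 39.0 CPM in R123 and 97.9 and 127 CPM in mCdx2-OE libraries.

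The genes did not vary as a block among the induced libraries. Over the 18 libraries, centred within each replicate number, Pearson's r between the 5 members with a mean of at least 1 CPM was 0.27 to 0.64 among Pdgfra, Dab2, Hnf4a and Foxq1, and -0.55 to -0.40 between Sparc and each of these. The genes most like a member were Aldh18a1 (r = 0.970) and Ooep (0.969) for Sparc, Ppm1d (0.933) and Car2 (0.923) for Dab2, and Borcs7 (0.894) and Prr5l (0.870) for Pdgfra. For Foxq1 they were Rsad2 (0.867) and Adam8 (0.866), and for Hnf4a Zfp473 (0.771) and Fadd (0.770), out of 13075 genes. These are descriptions over libraries that share constructs and depth.

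Other genes of the pathway were read from lists, whose counts with mCdx2 stand beside 18.4% of all genes called higher and 15.0% called lower. Of 10 further regulators of primitive endoderm, 6 rose and 2 fell with mCdx2, with a median log2 fold change of 1.35, led by Gata6 (3.12 ± 0.25), the factor that opens the lineage, the receptor Fgfr2 (2.46 ± 0.12) and Gata4 (2.07 ± 0.23). The summed level of the 10 was 163 to 167 CPM in WT and 134 to 229 CPM in induced mESC libraries. In RMES cells Fgfr2 (2.66 and 3.61 on the mouse and rat allele) and Gata4 (3.30 and 3.32) were called higher on both alleles, and Gata6 was not called on either (-0.75 and -0.02). Of 9 regulators tested, 5 were called higher and 0 lower on the mouse allele, beside 28.3% and 16.1% of all genes. On the rat allele 4 of 9 were higher and 1 lower, beside 28.3% and 14.2%. The summed level of the 10 went from 194 and 195 to 230 and 236 CPM on the mouse allele. On the rat allele it went from 417 and 423 to 360 and 381 CPM. With mCdx2 in mESCs, 4 of 9 basement membrane genes rose and 0 fell (median 0.90), led by the collagens Col4a2 (2.63 ± 0.11) and Col4a1 (1.31 ± 0.10) and the proteoglycan Hspg2 (1.33 ± 0.075). All 3 parietal endoderm genes tested, of 4, rose, among them Plat (4.45 ± 0.24), the tissue plasminogen activator, and Srgn (1.70 ± 0.22). Of 10 products of visceral endoderm only 4 passed the filter on low counts, 1 of which rose and 1 fell, Apoe by 2.12 ± 0.11. The median log2 fold change of the 4 was -0.34. The summed level of the 10 was 1123 to 1134 CPM in WT and 205 to 704 CPM in induced libraries. A sum mostly follows its most abundant genes and does not stand for the whole list. Afp, Ttr, Apoa1, Trf and Cer1 were too low to be tested. Among 9 partners, 2 rose and 2 fell, which is near the shares over all genes. The sister receptor Pdgfrb rose (1.59 ± 0.19), while the ligand Pdgfa (-1.31 ± 0.11) and the neuronal adaptor Dab1 (-1.93 ± 0.14) fell.

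Markers of other cell types moved too. Beside the same 18.4% higher and 15.0% lower over all genes, 9 of 10 trophoblast markers tested rose and 0 fell, with a median log2 fold change of 3.88 (Krt7 5.35, Gata2 5.25, Krt18 4.68). The summed level of the 12 listed was 163 CPM in both WT libraries and 210 to 1009 CPM in the induced ones, and 0 of them were at 0 in all induced libraries. Of 8 endothelial markers tested 5 rose (Tek 1.51) and 1 fell (Egfl7 -1.03), and of 5 definitive endoderm and node markers 2 rose (Gsc 1.62). Of 7 mesoderm markers 2 rose and 2 fell (Tcf15 -2.47), and of 6 intestinal markers 3 rose and 1 fell (Gpa33 -1.12). The median log2 fold changes were -0.095 for mesoderm and 1.06 for intestinal markers. The summed levels in WT and induced libraries were 152 to 156 and 129 to 232 CPM for endothelial, 11.3 to 12.6 and 11 to 15.7 CPM for definitive endoderm, 15.1 to 15.8 and 4.61 to 7.90 CPM for mesoderm, and 68.7 to 69.0 and 30.4 to 44.4 CPM for intestinal markers. Their part in the changes of the 9 genes was not tested.

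ATAC-seq, which marks open chromatin by transposase insertion, had 1 library of WT and 1 of mCdx2-OE mESCs, with 6.11 and 8.28 M reads in peaks. There is no replicate check and no test, and the intervals cover counting error only. Within 30 kb of the starts, 48 peaks reached 40 scaled reads, of which 6 were over 2-fold more open and 12 over 2-fold less open in mCdx2-OE cells. Among all 85394 such peaks, 13.7% were more and 20.5% less open. The balance depends on scaling to equal totals, since without scaling 11 of the peaks were more and 6 less open. The 6 opened peaks lay at Foxq1 and Hnf4a, with 2 each, and at Pdgfra and Cubn, with 1 each. Genes with at least 1 opened peak made up 35.4% of 19599 genes with a position, and genes with at least 1 closed peak 49.4%.

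The steepest opening was beside Foxq1. The peak at chr13:31564161-31564755, overlapping Gm11377 and holding the first window printed above, went from 2 to 60 reads, a 22.1-fold ratio after scaling (95% exact binomial interval 5.87 to 187). The second, in 1700018A04Rik, went from 8 to 63 reads. Both overlapped the Cdx2 peaks with the most reads near any of the 9 genes, 274 (mCdx2) and 251 (rCdx2) at 8.27 kb and 232 and 188 at 20.6 kb.

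At Hnf4a the intergenic peak at chr2:163476617-163477386 went from 6 to 52 reads (6.40-fold, interval 2.75 to 18.2), and it overlapped the only Cdx2 peak there, with 133 and 108 reads. Another peak 24.7 kb before the start went from 39 to 138 reads. At Cubn the peak at chr2:13479061-13479573, which overlaps a Cubn exon, likewise went from 6 to 52 reads, and 8 Cdx2 peaks lay within 30 kb, the highest number among the 9 genes. Some of these Cdx2 peaks lay in the neighbouring gene Trdmt1 or were intergenic. At Pdgfra the peak at chr5:75142947-75143426, in Gm19583, went from 16 to 48 reads (2.21-fold, interval 1.24 to 4.18) and overlapped no Cdx2 peak.

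After scaling, closed peaks lay mainly at Sparc, where 8 of 16 peaks were over 2-fold less open while its RNA was higher by under 2-fold. The peak 0.79 kb before the Sparc start (chr11:55423665-55424283) went from 69 to 9 reads (0.096-fold, interval 0.042 to 0.19). The most changed peaks of 3 other genes went the same way. Sox7 had 63 and 8 reads at chr14:63936334-63936905 (0.094-fold, interval 0.039 to 0.20), Foxa2 70 and 16 at chr2:148052914-148053796 (0.17-fold, interval 0.091 to 0.29), and Sox17 55 and 30 at chr1:4470927-4472108 (0.40-fold, interval 0.25 to 0.64). Dab2, called higher with every construct, had 0 peaks of 40 scaled reads in the window.

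ChIP-seq with an antibody to the Flag tag of the induced Cdx2 used 1 library of mCdx2-OE and 1 of rCdx2-OE mESCs, and peaks were called on merged reads. There were 17 Cdx2 peaks within 30 kb of the starts in mESCs, 8 at Cubn, 3 each at Sox17 and Foxq1, 1 each at Pdgfra, Dab2 and Hnf4a, and 0 at Sox7, Foxa2 and Sparc. At least 1 peak was present for 6 of the 9 genes, beside 76.2% of 19599 genes. The strongest peak at Sox17, 2.47 kb before its start (chr1:4499471-4500169), had 125 and 96 reads. The only peak at Dab2 was weak, with 21 and 20 reads in an intron (chr15:6324750-6324945), and that at Pdgfra (chr5:75127090-75127471) had 49 and 45. After scaling, the log2 ratio of mCdx2 to rCdx2 was within ±0.57 in all 17 peaks, and 0.912% of all Cdx2 peaks differed by over 2-fold.

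**Figure D4:**
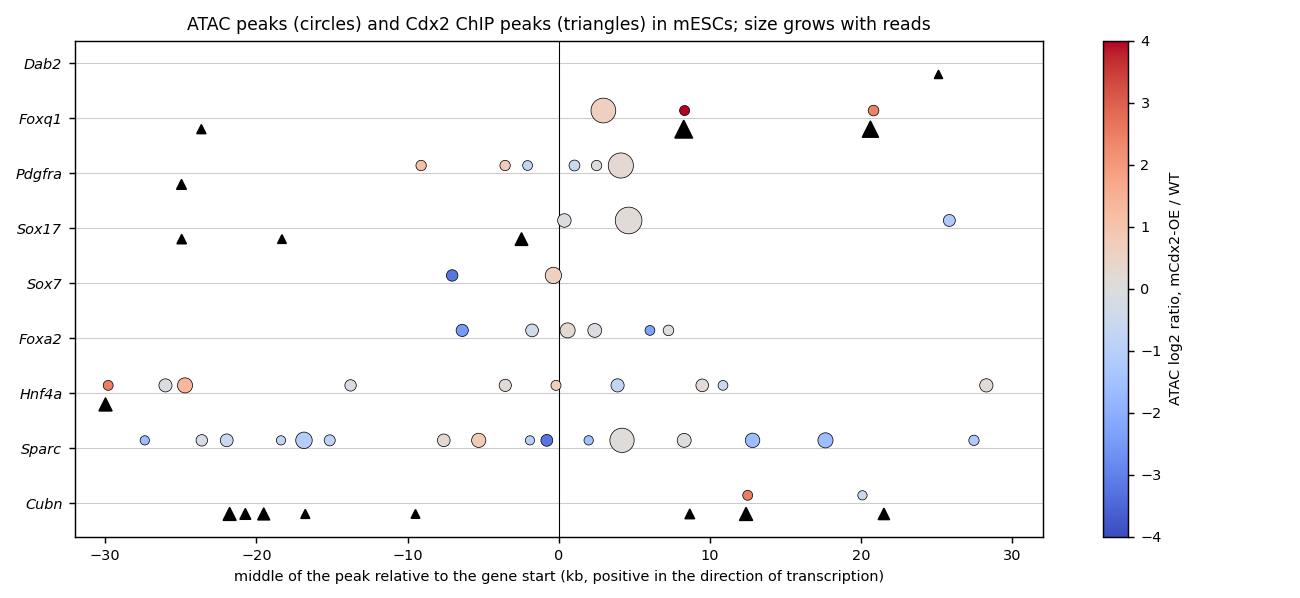
Distance of ATAC peaks (circles, coloured by the log2 ratio of mCdx2-OE to WT) and Cdx2 peaks (triangles) from the start of each gene in kb (horizontal axis), by gene (vertical axis), with symbol size growing with reads. The reddest circles sit on triangles at Foxq1, Hnf4a and Cubn, and at Sparc 8 of 16 circles are over 2-fold less open and no triangle is present.

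In RMES cells the libraries labelled WT were not free of Cdx2. They held 129 and 127 CPM of Cdx2 on the mouse and 453 and 440 CPM on the rat allele. The mCdx2-OE library had 968 CPM on the mouse and 47.2 CPM on the rat allele, and the rCdx2-OE library 4.45 and 880 CPM, so that Cdx2 was highest on the genome of the transgene's species and lower than in WT on the other. Pou5f1 was at 1932 and 1946 CPM on the mouse and 1719 and 1728 CPM on the rat allele of WT. With Cdx2-OE it was at 363 to 410 and 474 to 485 CPM. Nanog, higher in induced mESCs, was lower here. It went from 617 to 648 CPM in WT to 469 to 481 CPM on the mouse allele. On the rat allele it went from 685 to 710 CPM to 314 to 329 CPM. Sox2 was lower on both alleles as well. The mCdx2-OE and rCdx2-OE libraries were taken as 2 replicates of Cdx2-OE, so a difference between the proteins adds to the spread. Cdx2 itself was then not called by edgeR on either allele. Its log2 fold change was 1.93 ± 1.15 on the mouse (adjusted p = 0.14) and 0.055 ± 0.67 on the rat allele (adjusted p = 0.94).

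On the mouse allele 6 of the 8 genes tested were called, 5 higher and 1 lower, beside 44.5% of 16887 genes (28.3% higher, 16.1% lower). On the rat allele 5 of 8 were called, 3 higher and 2 lower, beside 42.5% of 14627 genes (28.3% higher, 14.2% lower). The alleles come from the same libraries. Cubn was too low to be tested on the mouse allele. Of 10 trophoblast markers tested, 9 were called higher and 0 lower on each allele (median log2 fold changes 4.64 on the mouse and 3.84 on the rat allele), and their summed level went from 220 and 238 CPM to 1154 and 1320 CPM on the mouse and from 283 and 299.8 CPM to 1066 and 1204 CPM on the rat allele. Of the products of visceral endoderm, 1 of 5 tested was called higher and 4 lower on the mouse allele, and 1 of 4 higher and 2 lower on the rat allele. Intestinal markers were called higher for 5 and lower for 2 of 7 on the mouse allele (median 2.76). On the rat allele 5 of 6 were higher and 0 lower (median 4.14). The summed level of the 10 intestinal markers listed went from 237 and 238 CPM to 64.4 and 68.7 CPM on the mouse allele. On the rat allele it went from 7.37 and 8.23 CPM to 21.6 and 23.9 CPM. Of parietal endoderm genes, 3 of 4 were called higher on the mouse allele and 4 of 4 on the rat allele, and 0 lower (medians 2.68 and 2.82). The part of these lists in the changes of the members was not tested.

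Dab2 and Pdgfra rose on both. Dab2 went from 0.25 and 0.28 CPM to 4.65 (mCdx2-OE) and 4.11 CPM (rCdx2-OE) on the mouse allele and from 0.44 and 0.10 to 6.27 and 7.68 CPM on the rat allele. The log2 fold changes were 4.04 ± 0.29 and 4.71 ± 0.34. The rat WT libraries had 12 and 3 Dab2 counts, and the rat value was 6.07 without WT replicate 1 and 3.97 without WT replicate 2. Pdgfra went from 0.59 and 0.36 to 3.24 and 4.47 CPM on the mouse and from 0.69 and 0.90 to 5.23 and 7.24 CPM on the rat allele, with log2 fold changes of 3.03 ± 0.30 and 2.95 ± 0.26. The groups of WT and Cdx2-OE libraries did not overlap for either gene.

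Hnf4a fell on both alleles. In the libraries labelled WT it was at 79.6 and 83 CPM on the mouse and 25.3 and 24.2 CPM on the rat allele. With Cdx2-OE it was at 0.67 and 0.26 CPM and at 1.09 and 0.52 CPM. The log2 fold changes were -7.44 ± 0.16 and -4.93 ± 0.20.

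Sparc rose little on the mouse allele, from 287 and 283 to 356 and 450 CPM (0.50 ± 0.088, under 2-fold), and more on the rat allele, from 63.4 and 60.5 to 302 and 402 CPM (2.51 ± 0.10). Foxa2 went up from 0.15 and 0.14 to 0.69 and 0.55 CPM on the mouse allele (2.06 ± 0.48) and down from 3.33 and 3.54 to 1.28 and 1.38 CPM on the rat allele (-1.36 ± 0.23). Sox7 rose on the mouse allele, from 5 and 4 to 36 and 13 counts (2.12 ± 0.62), and was 0.84 and 1.0 CPM in WT and 1.09 and 0.99 CPM with Cdx2-OE on the rat allele (0.17 ± 0.32). The mouse call of Sox7 was lost without WT replicate 1 (2.35, adjusted p = 0.081), without WT replicate 2 (1.89, adjusted p = 0.13) and without mCdx2-OE (1.20, adjusted p = 0.19). Foxq1, read on the mouse allele alone, rose from 0.22 and 0.33 to 1.95 and 1.27 CPM (2.52 ± 0.39). Sox17 did not pass on either allele (-0.58 ± 0.49 and -0.39 ± 0.34), nor Cubn on the rat allele (-0.34 ± 0.58).

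The response of the rat allele differed from that of the mouse allele for 4 of the 8 genes tested by an interaction term of allele and induction, blocked by library, beside 62.1% of 13605 genes paired by symbol. Sparc (2.03 ± 0.049) and Hnf4a (2.53 ± 0.31) had the higher value on the rat allele, and Foxa2 (-3.40 ± 0.56) and Sox7 (-1.87 ± 0.74) the lower one. Dab2 (0.71 ± 0.63), Pdgfra (-0.05 ± 0.38), Sox17 (0.18 ± 0.61) and Cubn (0.94 ± 0.88) did not pass. Since the alleles are counted on different annotations, their levels are not compared with each other, and the difference concerns the response alone.

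**Figure D5:**
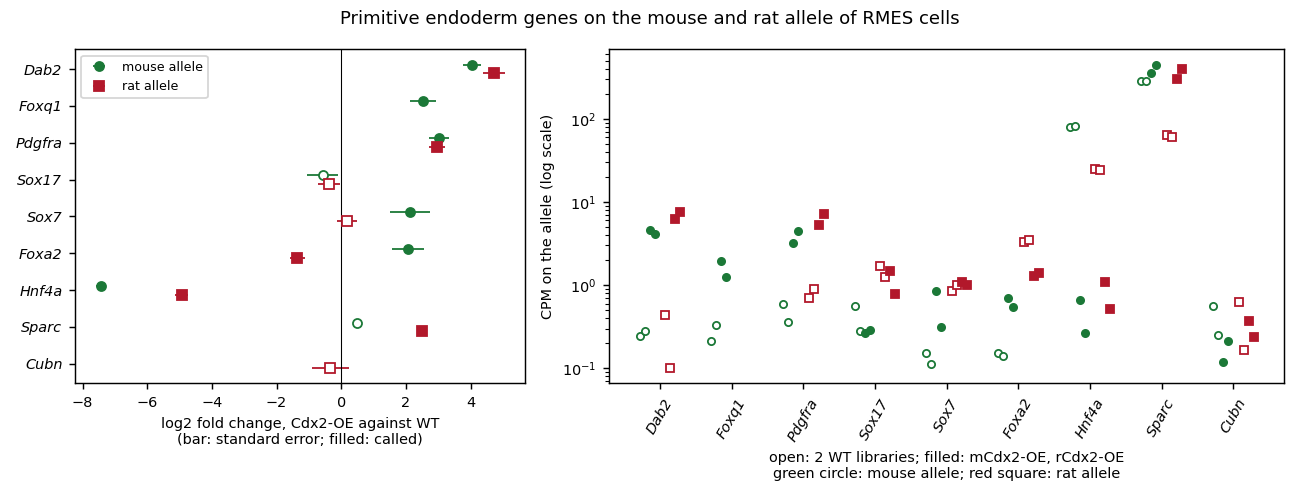
Left, log2 fold change of Cdx2-OE against WT with its standard error (horizontal axis) by gene (vertical axis) on the mouse and the rat allele, filled where called, and right, CPM on each allele in every library (log axis). Foxa2 points to the right on the mouse and to the left on the rat allele, and Hnf4a drops below 1.1 CPM on both alleles.

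In RMES cells 19 Cdx2 peaks on mm10 lay within 30 kb of a start, 6 at Cubn, 4 at Sox17, 3 at Foxq1, 2 at Foxa2, 1 each at Pdgfra, Dab2, Hnf4a and Sparc, and 0 at Sox7. At least 1 peak was present for 8 of the 9 genes, beside 65.2% of 19599 genes. The peak 8.19 kb after the Foxq1 start had 133 and 106 reads and that at Hnf4a 110 and 67, the sites whose mESC windows are printed above. The peak of Dab2 lay at another place in its first 30 kb, 19.3 kb after the start, and had 14 and 25 reads. Of the 17 Cdx2 peaks near these genes in mESCs, 14 overlapped a Cdx2 peak of RMES cells, beside 64.8% of all 91665.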

How the data were processed

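RNA-seq, ATAC-seq and Flag ChIP-seq of mESCs and RMES cells were analysed (30 samples). The counts deposited by the authors are raw read counts per gene or per peak, without normalisation. The authors aligned stranded RNA-seq read pairs to mm10 with STAR 2.7.0d and counted them by gene name with featureCounts, the replicate sets in separate runs with different settings. RMES reads were assigned to mm10 or rn6 by edit distance, and the treatment of reads equally close to both is not given in the sources used here. Reads of ATAC-seq and ChIP-seq were aligned with Bowtie2 2.3.4.3 and freed of duplicates, and the authors counted them in MACS2 peaks called on merged reads, with no Tn5 shift stated. Versions are from the submitters' processing notes. In the RMES ChIP table, columns MFO and RFO were taken as mCdx2 and rCdx2 from their letters. Peaks on rn6 were not used here.

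Tests used edgeR 4.0.16 (TMM, filterByExpr, quasi-likelihood) in R 4.3.3, with Benjamini-Hochberg adjustment over all genes tested. DESeq2 1.42.0 was an alternative. Standard errors were derived from the log2 fold change and the F statistic. The mESC contrasts came from 1 fit of 20 libraries, the changes from an additive fit of 16. Peak counts were scaled to equal totals and 1 was added before taking log2. ATAC peaks needed 40 scaled reads. Gene positions and biotypes are from GENCODE on GRCm38 and promoters from RefSeq, and Python 3.11.15 was used for peaks. Intervals cover counting error only. The scripts were tested on simulated data. Other settings tried were scaling, filters, fold thresholds, windows, replicate blocks and leaving out libraries.

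The 9 genes and the lists were chosen with earlier results of these data known. Of other lists, at most 3 genes each were named, those with the largest log2 fold change called with mCdx2 and a mean of at least 50 counts. Like genes are the 2 with the highest r, and the peaks named are those most changed or with most reads, beside others named after their values were seen. A fit without TMM scaling moved the median log2 fold change of all genes to 0.16 with mCdx2 from -0.03, and to 0.50 and 0.28 from 0.08 and 0.07 on the mouse and rat alleles of RMES cells.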

Additional observations from a re-analysis of the deposited data

Results flagged for a closer look

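The response to Cdx2-OE in RMES cells differed between the rat and the mouse allele for 4 genes by edgeR's interaction test, given as rat minus mouse on the log2 scale. The difference was 2.03 for Sparc, 2.53 for Hnf4a, -3.40 for Foxa2 and -1.87 for Sox7. For Foxa2 the 2 alleles moved in opposite directions, up on the mouse allele in 2 of 2 and down on the rat allele in 2 of 2 Cdx2-OE libraries. For Hnf4a both alleles fell and the mouse allele fell further, from 79.6 and 83 CPM. The Sox7 difference rests on 5 and 4 counts in the mouse WT columns and was lost under DESeq2 (-1.81, adjusted p = 0.18), without WT replicate 1 (-2.24, adjusted p = 0.058), without WT replicate 2 (-1.55, adjusted p = 0.18) and without mCdx2-OE (-1.07, adjusted p = 0.38). Of all genes paired by symbol, 62.1% differed in the same test.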

How the results depend on the processing

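No called value changed its sign under the alternatives run. Under DESeq2, 2 members were called with mCdx2 in place of 4 (Foxa2 and Pdgfra had adjusted p-values of 0.051 and 0.052) and 4 with rCdx2 in place of 5 (Foxa2, 0.055), and with a mean of at least 1 CPM required 3 were called with rCdx2, the low genes being left out of the test. Leaving out single libraries gave 3 to 4 calls with mCdx2, 3 to 5 with rCdx2, 18 to 27 calls in the mutants (23 with all libraries), 5 to 7 among constructs, 3 to 6 for change 3, 0 between mCdx2 and rCdx2, 5 to 6 on the mouse and 5 on the rat allele, and 3 to 4 for the difference between alleles. Without scaling, 11 ATAC peaks near the genes were opened and 6 closed, against 6 and 12. In a 10 kb window these were 2 and 6, and in a 100 kb window 12 and 26. Cdx2 peaks numbered 4 in 10 kb, 62 in 100 kb and 11 with at least the median reads in mESCs, and 4, 55 and 12 in RMES cells. Cubn passed the test with mCdx2 only when the 2 groups were fitted alone (-1.79, adjusted p = 0.030). The labels do not say that a replicate number marks a shared culture or batch. It does mark a counting run, as the replicate sets were counted separately with different settings. In every mutant Cdx2 was higher in replicate 1 (61.9 to 147 CPM) than in replicate 2 (37.2 to 68.8 CPM). In mCdx2-OE it was lower in replicate 1 (97.9 against 127 CPM). Correlations of same-numbered deviations exceeded 0.1 in 22 of 45 pairs of conditions, not in all (-0.21 to 0.66, median -0.033). The numbers were therefore not used as pairs in the main fits. As a hint from the data, 9 of 10 conditions correlated best with their own number. With the replicate block the calls were 4 with mCdx2, 5 with rCdx2, 23 in the mutants, 0 between proteins, 6 among constructs and 5 for change 3, where Foxq1 was lost (adjusted p = 0.054), as under DESeq2 (adjusted p = 0.064). For RMES cells, No paired analysis was possible because mCdx2-OE and rCdx2-OE had 1 library each. Depth limits Foxa2, Cubn, Sox17 and Sox7, most of whose libraries had under 20 counts. Foxq1 and Pdgfra were low as well. Foxq1 had 21 and 26 counts in WT and 10 to 45 in induced mESC libraries. Pdgfra had 82 and 83 counts in WT and 9 to 80 in induced mESC libraries.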
